A study of Mus musculus with 32 samples.

Results

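The matrix proteases and their inhibitors of cultured mouse lung endothelial cells (ECs) were taken by symbol alone, as the matrix metalloproteinases (Mmp), the membrane-anchored ADAM proteases (Adam), the secreted ADAMTS proteases (Adamts), the ADAMTS-like proteins (Adamtsl) and the tissue inhibitors of metalloproteinases (Timp). Of 54429 symbols in the merged count table, 84 matched, and the 35 with a mean of at least 1 CPM (the count as a share of the library total, scaled to a common size) in any of 8 groups are described below. These were 10 of 33 Adam, 10 of 19 Adamts, 2 of 5 Adamtsl, 10 of 23 Mmp and 3 of 4 Timp genes. The other 49 were silent by this rule, and 10 of them had 0 counts in all 32 libraries. Just above the limit were Adam1a (1.12 CPM in its highest group) and Adam3 (1.25 CPM), and just below it Adamtsl1 (0.931 CPM), Mmp25 (0.891 CPM) and Adam33 (0.883 CPM). All 35 passed the filter on low counts that precedes the test.

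The cells were Veravec, a single mouse lung EC line, so the 8 groups describe 1 line in culture. Every group was transfected, on 2 occasions, either with siRNA that targets Dnmt1 (si-dnmt) or with the control siRNA (si-control). Dnmt1 is the methyltransferase that copies DNA methylation to the new strand. Each siRNA was then followed by no cytokine, by TNF (TNFα, 10 ng/mL), by IFN (IFNγ, 1000 U/mL) or by both for 16 h, and 4 libraries per group, which the study calls biological replicates, were sequenced in bulk. The doses in the combination are not stated apart from those of the single cytokines, and whether the 2 Dnmt1 siRNAs in the study's methods were pooled is not given. One group is spelled si-dnmtl + TNF in the labels and was read as si-dnmt + TNF.

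Libraries held 17362546 to 33500030 counts (median 20859668), and the 35 members took at most 0.399% of them. Dnmt1 was at 86.5 to 211 CPM in the 16 si-control libraries and at 5.11 to 17.3 CPM in the 16 si-dnmt libraries. All 8 endothelial markers examined, Cdh5 and Pecam1 among them, had counts in every library, whereas of the 20 markers of other cell types Sftpc (epithelial), Tcf21 (fibroblast) and Cd3e (T cells) were at 0 in all 32. The fibroblast markers Pdgfra and Dcn, the pericyte marker Pdgfrb and the myeloid marker Csf1r had counts in all 32. The summed level reached 0.26 CPM for the 5 epithelial, 1.86 CPM for the 5 leukocyte and 4.32 CPM for the 5 pericyte or smooth muscle markers. The fibroblast list as a whole (Pdgfra, Col1a1, Dcn, Lum, Tcf21) moved with TNF: its summed level was 1.30 to 2.53 CPM in si-control, 14.9 to 57.6 CPM in si-control + TNF, 21 to 30.8 CPM in si-control + TNF + IFN and 3.85 to 7.66 CPM in si-dnmt, most of it Dcn in the TNF groups. The summed endothelial level was 5144 to 7729 CPM in si-control and 2851 to 3436 CPM in si-control + TNF + IFN. The part of either list in the results below was not tested. Within each group, replicates 3 and 4 stood apart from replicates 1 and 2, which the labels do not explain, so values within a pair of replicates are given where a call of a member described below was lost in that pair alone. RNA was bulk, so fewer expressing cells and less RNA per cell cannot be told apart.

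Matrix metalloproteinases are zinc enzymes that cut collagens, basement membrane and one another's proforms, and the Timp proteins block them by occupying the active site. ADAM proteases mostly shed the outer parts of membrane proteins such as cytokines, growth factors and Notch, and ADAMTS proteases are secreted enzymes that cut proteoglycans, procollagens and other matrix proteins. In endothelium these enzymes are known for the opening of the basement membrane during sprouting and leukocyte exit, and for shedding of adhesion molecules and receptors.

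In resting si-control cells the inhibitors and the constitutive sheddases led the family. Per kilobase of exon in GENCODE M21, Timp2 stood highest (166 CPM per kb), followed by the sheddases Adam10 (98.4) and Adam9 (91.9), then Timp3 (66.7), the gelatinase Mmp2 (57.5), Adamts1 (54.3) and the membrane-type protease Mmp14 (39.6 CPM per kb). The collagenase Mmp13 (0.0568 CPM per kb) and the gelatinase Mmp9 (0.0264 CPM per kb) were close to absent at rest. With TNF + IFN, Mmp13 stood at 13.2 CPM per kb, near Adamts1 (13.0), while Timp2 stood at 70.3 CPM per kb. All other levels below are CPM scaled by the trimmed mean of M values (TMM), given as group means ± SD with n = 4 or library by library in the order of replicates 1 to 4.

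The first question was which members differed after silencing of Dnmt1 in each cytokine state. Calls were made where edgeR's quasi-likelihood test gave an adjusted p under 0.05 after Benjamini-Hochberg adjustment over all 15254 genes tested, and fold changes are log2 ± SE from the same fit. That fit held no term for the replicate number or the replicate pair. At rest, 3 of the 35 members were called higher with si-dnmt and 4 lower (8.57% and 11.4%), beside 9.58% and 8.88% of all genes tested. Under TNF 5 were called higher and 5 lower (14.3% each), beside 10.4% and 9.59% of all genes. Under IFN 5 were called higher and 2 lower (14.3% and 5.71%), beside 10.8% and 9.54%. Under TNF + IFN 4 were called higher and 4 lower (11.4% each), beside 8.97% and 8.72%. These shares were near those of all genes, and the median log2 fold change of the members lay between -0.05 and 0.09 in the 4 states, beside medians of -0.01 to 0.00 for all genes. With the replicate number as a block the totals were 11 of 35 at rest in place of 7 (4 higher and 7 lower), and 16 under IFN in place of 7 (10 higher and 6 lower). They were 7 higher and 7 lower under TNF and 6 higher and 5 lower under TNF + IFN. The share of all genes called with the block is not given here, so these totals have no background beside them.

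Over the 4 states the calls were 9 higher and 1 lower for Adam, 4 and 5 for Adamts, 3 and 9 for Mmp and 1 and 0 for Timp genes, with the same gene counted once in each state. Of the Adam rises, Adam9 and Adam12 gave 4 each and Adam19 gave 1. Mmp2, Mmp3 and Mmp13 gave 4, 3 and 2 of the Mmp falls, and Mmp15 gave all 3 Mmp rises. So few genes show no trend of a family, and no share of all genes is set beside these counts. Adam9, Adam12 and Adamts14 were called higher with si-dnmt in all 4 states and Mmp2 was called lower in all 4, each state with its own 8 libraries. No member was called in opposite directions in 2 states. Of the 35, 23 were called in none of the 4, among them Timp1, Timp2, Mmp9, Mmp14, Adam10 and Adam17. These counts are from the fit without the replicate block, and with it Timp1 was called under TNF and under TNF + IFN. A member not called is thus not shown to be unchanged.

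**Figure D1:**
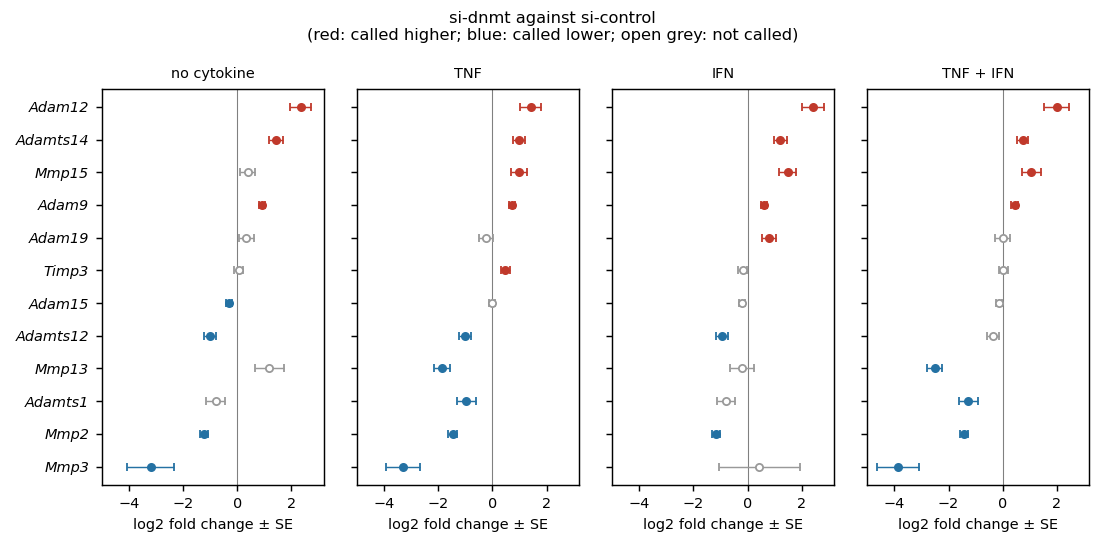
Log2 fold change ± SE (x axis) of the 12 members called in at least 1 comparison of si-dnmt with si-control, in each cytokine state, from edgeR's fit of 4 libraries per group. Adam12, Adamts14 and Adam9 lie to the right and Mmp2 to the left of 0 in all 4 panels, whereas Mmp13 lies left of 0 under TNF (-1.86) and TNF + IFN (-2.52) but not at rest (1.18, not called).

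Mmp2, the gelatinase that cuts type IV collagen of the basement membrane, was lower with si-dnmt in every state. At rest its level was 154, 179, 212 and 216 CPM in the 4 si-control libraries and 90.5, 88.7, 69.2 and 74.7 CPM in the 4 si-dnmt libraries. Under TNF + IFN it was 160.5, 148, 144 and 140.2 CPM against 55.5, 62, 52.7 and 50.2 CPM. Every si-dnmt library lay below every si-control library of the same state, in all 4 states. The log2 fold change was -1.24 ± 0.15 at rest (adjusted p = 1.55e-06), -1.47 ± 0.15 under TNF (adjusted p = 1.09e-07), -1.17 ± 0.15 under IFN (adjusted p = 3.97e-06) and -1.43 ± 0.15 under TNF + IFN (adjusted p = 2.79e-07). The fall at rest was -0.88 within replicates 1 and 2 and -1.57 within replicates 3 and 4.

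Mmp14 and Timp2, the membrane-type protease and the inhibitor that together activate proMmp2 at the cell surface, were not called with si-dnmt in any state. Mmp14 stood at 232 ± 27.8 CPM in resting si-control and 264 ± 29.9 CPM in resting si-dnmt, and at 205 ± 13.7 and 210.5 ± 13.4 CPM under TNF + IFN, with overlapping libraries in both. The Mmp14 ranges also overlapped under TNF (202.9 to 219.7 CPM in si-control, 217.7 to 261.1 CPM in si-dnmt). Under IFN the ranges were separate, from 190.8 to 215.6 CPM in si-control and from 222.6 to 238 CPM in si-dnmt, without a call. Without si-control replicate 2 Mmp14 was called higher at rest (0.27, adjusted p = 0.0337).

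Adam9, a sheddase that cuts growth factor precursors and adhesion proteins, was higher with si-dnmt in every state. Its level at rest was 332, 369, 386 and 398 CPM in si-control against 671, 615, 765 and 756 CPM in si-dnmt, with no overlap. The rise was 0.92 ± 0.12 at rest (adjusted p = 2.34e-06), 0.72 ± 0.12 under TNF (adjusted p = 5.43e-05), 0.61 ± 0.12 under IFN (adjusted p = 0.000374) and 0.44 ± 0.12 under TNF + IFN (adjusted p = 0.00878). Without silencing, IFN and TNF + IFN also raised Adam9 in si-control, by 0.50 ± 0.12 (adjusted p = 0.00304) and 0.57 ± 0.12 (adjusted p = 0.0002). The si-control group mean stood at 371 ± 28.9 CPM at rest and 552 ± 70.9 CPM with both cytokines, and the si-dnmt mean at 702 ± 71.7 and 746 ± 38.2 CPM. The smaller step between siRNAs under TNF + IFN was not called as an interaction (log2 -0.48, adjusted p = 0.248, and 0.0196 with the replicate number as a block).

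Adam12 (meltrin alpha, a membrane protease known for shedding of epidermal growth factor ligands) had the largest rise of the members at rest. Its level was 4.36, 4.61, 6.37 and 5.56 CPM in si-control against 14.1, 18.7, 42.7 and 29.8 CPM in si-dnmt, so the 2 groups did not overlap and replicates 3 and 4 of si-dnmt were the highest. Under TNF + IFN it was 0.96, 1.25, 1.17 and 1.0 CPM against 2.52, 2.88, 5.55 and 6.37 CPM. The log2 fold change was 2.33 ± 0.39 at rest (adjusted p = 9.39e-05), 1.41 ± 0.38 under TNF (adjusted p = 0.00849), 2.41 ± 0.41 under IFN (adjusted p = 0.000111) and 1.99 ± 0.45 under TNF + IFN (adjusted p = 0.00221). Under TNF the rise was 0.83 within replicates 1 and 2 and 2.38 within replicates 3 and 4. In si-control with TNF + IFN Adam12 fell by 2.25 ± 0.44 (adjusted p = 0.000134). IFN alone gave -1.17 ± 0.41 (adjusted p = 0.0547, 0.0363 with the replicate number as a block).

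Adamts14, an enzyme that removes the amino-terminal propeptide of fibrillar procollagens, was the single member called higher by silencing in all 4 states and by the cytokines in all 3 comparisons. At rest it was at 0.844, 0.583, 1.45 and 1.34 CPM in si-control against 2.27, 3.38, 2.69 and 3.12 CPM in si-dnmt. With TNF + IFN it was at 5.67, 5.93, 4.07 and 4.55 CPM in si-control against 8.36, 10.7, 7.34 and 7.16 CPM in si-dnmt. The lowest level was thus in resting si-control and the highest in si-dnmt + TNF + IFN, and the siRNA groups of a state did not overlap. Silencing gave 1.43 ± 0.24 at rest (adjusted p = 0.00012), 0.98 ± 0.22 under TNF (adjusted p = 0.00241), 1.21 ± 0.23 under IFN (adjusted p = 0.000417) and 0.73 ± 0.22 under TNF + IFN (adjusted p = 0.0208). The last call was lost without replicate 3 or 4 of si-control + TNF + IFN or replicate 2 of si-dnmt + TNF + IFN (0.59 to 0.68, adjusted p = 0.0564 to 0.0858). The rise under TNF was 0.43 within replicates 3 and 4 alone, adjusted p = 0.078.

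**Figure D2:**
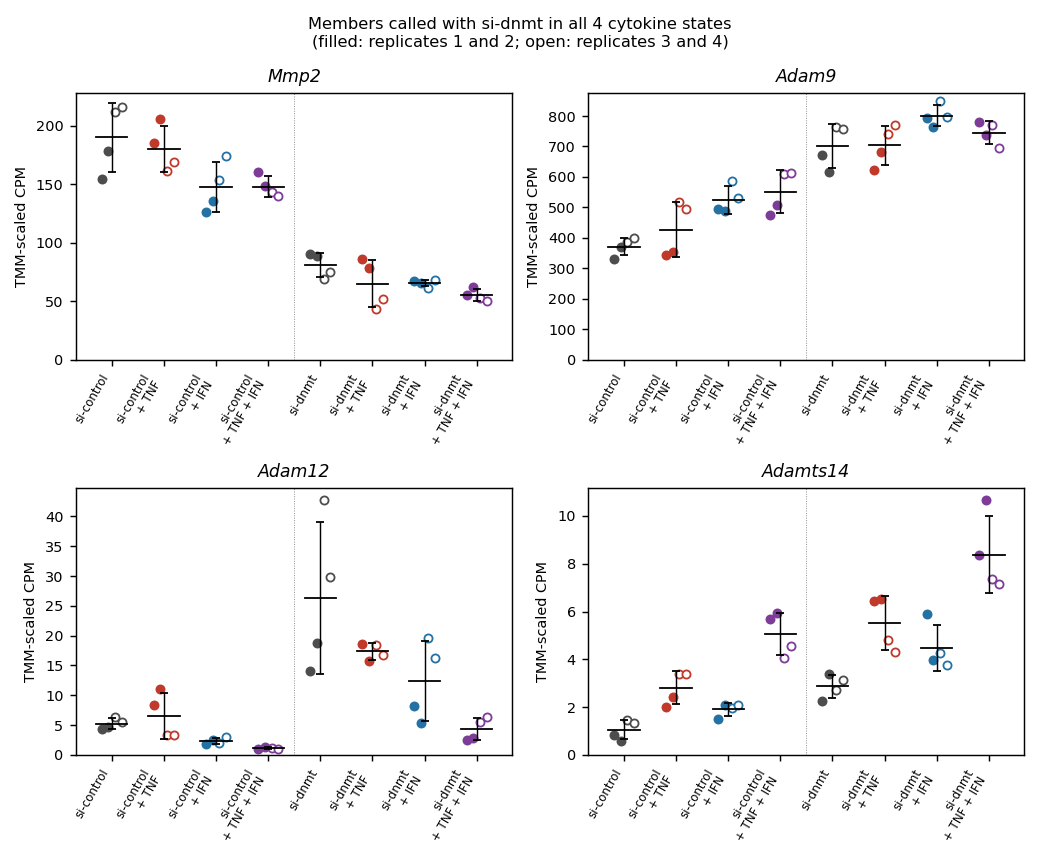
TMM-scaled CPM (y axis, from 0) of the 4 members called in all 4 siRNA comparisons, by group (x axis). Points are libraries, filled for replicates 1 and 2 and open for replicates 3 and 4, and bars are the group mean ± SD (n = 4). The dotted line separates si-control from si-dnmt, and within each cytokine state every si-dnmt library lies below every si-control library for Mmp2 and above it for the other 3.

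Dnmt1 acts on CG dinucleotides, so 2 member promoters are shown with each CG in capitals. One is that of Adamts14, raised in every siRNA comparison. The other is that of Timp3, which was called higher under TNF and not at rest, under IFN or under TNF + IFN. RefSeq (GRCm38.p6) gave a promoter for 22 of the 35 members and 24 start sites, and the table used here held no entry for Mmp2, Adam9 or Adam12. The 250 bases before the start of Adamts14 (chr10:61273420-61273669, minus strand) held 35 CG and those of Timp3 (chr10:86300162-86300411, plus strand) held 18, beside a median of 6 over 32851 mouse promoters of this length and 14.5 over the 24 of the members. The promoter of Adam10, called in no siRNA comparison, held 29 CG. Those of Mmp13 and Mmp3, called lower in 2 and 3 siRNA comparisons, held 1 each. Whether the number of CG goes with the response to silencing was not tested. No methylation was measured, and the build of the count tables is not given.
Adamts14: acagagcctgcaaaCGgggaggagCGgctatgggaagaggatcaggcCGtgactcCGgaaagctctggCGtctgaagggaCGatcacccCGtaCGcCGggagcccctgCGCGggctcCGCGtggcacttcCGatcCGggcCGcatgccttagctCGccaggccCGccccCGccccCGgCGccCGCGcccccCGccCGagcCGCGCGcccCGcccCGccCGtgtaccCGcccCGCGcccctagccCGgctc
Timp3: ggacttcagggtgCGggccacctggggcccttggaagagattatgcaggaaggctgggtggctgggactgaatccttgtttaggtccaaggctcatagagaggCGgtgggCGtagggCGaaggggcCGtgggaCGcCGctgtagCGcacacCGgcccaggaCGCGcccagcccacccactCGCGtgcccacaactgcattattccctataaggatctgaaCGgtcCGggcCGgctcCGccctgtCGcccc

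Adamts12, which cuts cartilage oligomeric matrix protein and restrains angiogenesis, went the other way in 3 states. It was at 31.4, 34.9, 21.1 and 24.9 CPM in si-control against 16.3, 20.1, 9.68 and 9.62 CPM in si-dnmt at rest, with no overlap. The log2 fold change was -1.01 ± 0.21 at rest (adjusted p = 0.000857), -1.02 ± 0.21 under TNF (adjusted p = 0.000893) and -0.94 ± 0.21 under IFN (adjusted p = 0.00226). Under TNF + IFN, where si-control itself was down at 4.72 ± 0.601 CPM, it was -0.36 ± 0.23 (adjusted p = 0.302). The interaction that compares this with rest was not called, so the states are not shown to differ.

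Adamts1, an ADAMTS protease of versican and aggrecan with antiangiogenic activity, was lower with si-dnmt under TNF (-0.97 ± 0.35, adjusted p = 0.0487) and TNF + IFN (-1.28 ± 0.35, adjusted p = 0.0111). Under TNF + IFN it was at 90.8, 101, 59 and 56.5 CPM in si-control against 30.9, 36.7, 29.6 and 29.1 CPM in si-dnmt, with no overlap. Under TNF the groups overlapped (41.9 to 106 and 28 to 45.1 CPM), and that call was lost without any of 6 libraries, namely replicate 1 or 2 of si-control + TNF or any replicate of si-dnmt + TNF (-1.10 to -0.71, adjusted p = 0.0507 to 0.191). At rest and under IFN the differences of -0.80 ± 0.34 and -0.80 ± 0.34 were not called (adjusted p = 0.107 and 0.103). They were called with the replicate number as a block, with adjusted p = 2.38e-05 and 2.67e-05. The 2 replicate pairs stood far apart, at 344, 401, 194 and 196 CPM in resting si-control, while the fall at rest was -0.77 in the one and -0.85 in the other.

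Mmp15, a membrane-type metalloproteinase, was called higher with si-dnmt under TNF, IFN and TNF + IFN. Under IFN it was at 0.84, 1.3, 0.818 and 1.13 CPM in si-control against 2.83, 2.69, 3.08 and 2.85 CPM in si-dnmt, with no overlap (1.48 ± 0.32, adjusted p = 0.00124). The rise was 0.98 ± 0.29 under TNF (adjusted p = 0.0171) and 1.05 ± 0.36 under TNF + IFN (adjusted p = 0.0397). The TNF call was lost without replicate 3 or 4 of si-control + TNF or replicate 2 of si-dnmt + TNF (0.74 to 0.78, adjusted p = 0.0679 to 0.0766). The TNF + IFN call was lost without replicate 1, 2 or 3 of si-control + TNF + IFN or replicate 2, 3 or 4 of si-dnmt + TNF + IFN (0.95 to 1.09, adjusted p = 0.0676 to 0.108) and within replicates 1 and 2 (1.06, adjusted p = 0.0532). At rest the difference was 0.39 ± 0.28 (adjusted p = 0.361), with 0.78 in replicates 1 and 2 and -0.13 in replicates 3 and 4. The interactions of the siRNA with the cytokines were not called for Mmp15, so the states are not shown to differ.

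Adam15, Adam19 and Timp3 were each called between siRNAs in 1 state, and Timp3 is described with the cytokines below. Adam15, an ADAM protease of cell junctions, was lower at rest (116, 108, 130.1 and 117 against 95, 91.3, 91.5 and 104 CPM, -0.30 ± 0.10, adjusted p = 0.0353), a call lost without replicate 1, 3 or 4 of si-control or replicate 1, 2 or 3 of si-dnmt (-0.31 to -0.25, adjusted p = 0.0584 to 0.118) and within replicates 1 and 2 (-0.26, adjusted p = 0.0898). Adam19 (meltrin beta) was higher under IFN (5.21, 5.98, 8.56 and 9.66 against 7.88, 9.45, 16.6 and 16.6 CPM, 0.79 ± 0.27, adjusted p = 0.04), a call lost without replicate 1, 2 or 3 of si-control + IFN or replicate 3 or 4 of si-dnmt + IFN (0.62 to 0.87, adjusted p = 0.0505 to 0.150). Both Adam19 groups overlapped. Under TNF the Adam19 difference of -0.24 ± 0.26 (adjusted p = 0.572) was -0.67 in replicates 1 and 2 and 0.38 in replicates 3 and 4, each called within its own pair and in opposite directions.

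Mmp13 and Mmp3 gave the largest falls of the family with si-dnmt. Mmp13 (collagenase 3) cuts fibrillar collagens, and Mmp3 (stromelysin 1) cuts proteoglycans and other matrix proteins and activates proMmp enzymes. Without cytokine Mmp13 was near 0, at 0.0938, 0.053, 0.0878 and 0.358 CPM in si-control, or 13 counts over 4 libraries. With TNF it stood at 7.13, 7.64, 9.34 and 7.42 CPM and with TNF + IFN at 64.9, 42.8, 25.6 and 23.8 CPM. These groups did not overlap with one another. Mmp13 passed the 1 CPM limit only through groups with TNF (at most 0.424 CPM in any group without TNF). Its rises with TNF are thus not independent of its choice as a member. The ratio of summed counts per library total was 52.0 for TNF against none (95% exact interval 30.2 to 98.1, counting error only) and 235 for TNF + IFN (137 to 442), and the fitted changes were 5.64 ± 0.41 (adjusted p = 3.07e-11) and 7.96 ± 0.42 (adjusted p = 4.29e-15).

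In si-dnmt cells Mmp13 reached a lower level with the same cytokines. It was at 0.178, 0.299, 0.511 and 0.382 CPM at rest, 2.01, 2.58, 1.8 and 2.31 CPM with TNF and 7.99, 8.27, 5.03 and 6.07 CPM with TNF + IFN. Every si-dnmt library with TNF or TNF + IFN lay below every si-control library of the same state. The fall was -1.86 ± 0.30 under TNF (adjusted p = 4.68e-05) and -2.52 ± 0.29 under TNF + IFN (adjusted p = 4.88e-07), or 5.65-fold lower in summed counts under TNF + IFN (95% exact interval 5.13 to 6.24, counting error only). At rest the difference was 1.18 ± 0.53 and was not called (adjusted p = 0.123), although it was 2.07 (adjusted p = 0.0199) without si-control replicate 4, which held 8 of that group's 13 counts. Under IFN it was -0.21 ± 0.44 (adjusted p = 0.796).

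The response of Mmp13 to TNF + IFN differed between the siRNAs by -3.70 ± 0.59 on the log2 scale (adjusted p = 0.00188). Mmp13 was the 1 member of 35 (2.86%) called in that interaction, beside 0.531% of all genes tested. With the replicate number as a block 3 were called, with no share of all genes from that fit beside them. The difference was -4.34 within replicates 1 and 2 and -3.14 within replicates 3 and 4. For TNF alone the interaction was -3.04 ± 0.60 (adjusted p = 0.0581, 0.021 with the replicate number as a block). It was called without si-control replicate 4, si-control + TNF replicate 1 or si-dnmt replicate 1 (-3.93 to -3.08, adjusted p = 0.00817 to 0.0414).

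In the interaction of the siRNA with TNF, edgeR called 0 of 35 members, beside 0.0328% of all genes tested. At an unadjusted p under 0.05 there was 1, and DESeq2 called 1, which was Mmp13, as did edgeR with the replicate number as a block. In the interaction with IFN edgeR called 0, beside 0.0459% of all genes, with 1 at an unadjusted p under 0.05 and 0 by DESeq2.

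Mmp3 passed the 1 CPM limit only through si-control + TNF (1.60 CPM, at most 0.801 CPM in any other group). Comparisons of Mmp3 with that group are thus not independent of its choice as a member. Mmp3 was low throughout, and lower still with si-dnmt at rest, under TNF and under TNF + IFN. It held 1.98, 2.3, 1.43 and 0.557 CPM in si-control + TNF and 0.412, 0.0469, 0.0922 and 0.0514 CPM in si-dnmt + TNF, which is 140 counts against 13, with 9 of the 13 in replicate 1. In si-control + TNF + IFN it held 1.58, 0.884, 0.308 and 0.793 CPM and in si-dnmt + TNF + IFN 0, 0.12, 0.0578 and 0.0493 CPM, or 70 counts against 4. At rest there were 26 counts in si-control and 3 in si-dnmt. The siRNA groups did not overlap in these 3 states. The ratio of summed counts was 9.69-fold lower under TNF (95% exact interval 5.49 to 18.7), 15.6-fold lower under TNF + IFN (5.82 to 58.7) and 9.98-fold lower at rest (3.06 to 51.5), all for counting error only. The fitted log2 changes were -3.31 ± 0.62 (adjusted p = 0.000324), -3.86 ± 0.77 (adjusted p = 0.00067) and -3.20 ± 0.86 (adjusted p = 0.00921). The call at rest was lost within replicates 3 and 4 (-1.49, adjusted p = 0.298), which held 7 of the 26 counts in si-control. Under IFN the 2 groups held 1 and 2 counts, too few for a fold.

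**Figure D3:**
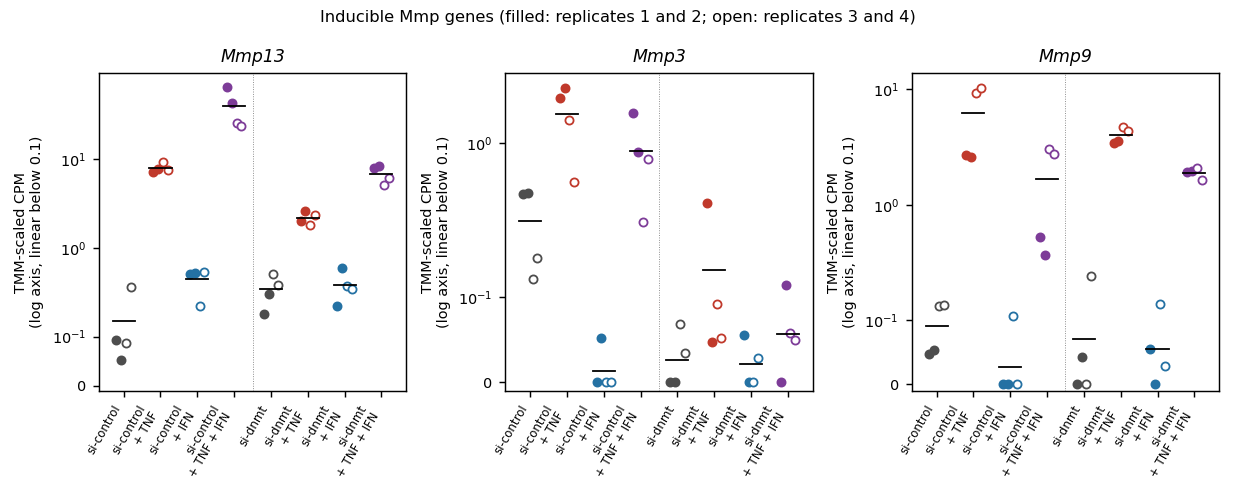
TMM-scaled CPM (y axis, log above 0.1 and linear below) of Mmp13, Mmp3 and Mmp9 by group (x axis). Points are libraries, filled for replicates 1 and 2 and open for replicates 3 and 4, and bars are group means of 4. Mmp13 lies lower in si-dnmt + TNF + IFN than in si-control + TNF + IFN in every library, whereas the Mmp9 libraries of those 2 groups overlap.

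The promoters of Mmp13 and Mmp3 are shown because both genes rose with TNF and both hold the letters TGANTCA, the core bound by AP-1, in capitals. In the 250 bases before the RefSeq start (GRCm38.p6) the match lay 35 to 29 bases before the start of Mmp13 (chr9:7272264-7272513, plus strand) and 46 to 40 bases before that of Mmp3 (chr9:7445572-7445821, plus strand). Of the 24 promoters of the 22 members, 3 held the motif (those of these 2 and 1 of Adam19), beside 6.75% of 32851 promoters. The letters read the same on both strands, and a match is a description, not a site shown to be used.
Mmp13: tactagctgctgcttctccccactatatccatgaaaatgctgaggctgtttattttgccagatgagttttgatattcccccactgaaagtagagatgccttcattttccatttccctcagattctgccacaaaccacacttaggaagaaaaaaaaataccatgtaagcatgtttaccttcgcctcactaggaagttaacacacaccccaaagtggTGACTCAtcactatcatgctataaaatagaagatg
Mmp3: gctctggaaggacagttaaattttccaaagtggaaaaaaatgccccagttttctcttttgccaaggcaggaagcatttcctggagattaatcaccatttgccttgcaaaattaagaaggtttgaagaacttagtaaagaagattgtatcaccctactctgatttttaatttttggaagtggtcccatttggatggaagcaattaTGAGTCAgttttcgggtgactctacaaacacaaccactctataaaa

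A loose form of the site bound by NF-kB opens with GGG and closes with CC and was searched on both strands. It was in 15 of the 24 member promoters (14 of the 22 members), beside 45.8% of all promoters. TTCNNNGAA, the core bound by STAT proteins, which reads the same on both strands, was in 0 of the 24 and in 7.02% of all. Neither Mmp13 nor Mmp3 was among the 14, while Timp1, Timp3 and Adamts14 were.

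Mmp9, the second gelatinase, rose with TNF in si-control and was not called between the siRNAs. It passed the 1 CPM limit only through groups with TNF (at most 0.0936 CPM in any group without TNF). Its rises with TNF are thus not independent of its choice as a member. Mmp9 held 0.0469, 0.053, 0.132 and 0.135 CPM at rest (8 counts), 2.71, 2.58, 9.25 and 10.2 CPM with TNF and 0.528, 0.364, 3.02 and 2.75 CPM with TNF + IFN, with no overlap between rest and either. The ratio to rest was 66.2 for TNF (95% exact interval 33.4 to 154) and 15.0 for TNF + IFN (7.35 to 35.4), both for counting error only, and the fitted changes were 5.96 ± 0.76 (adjusted p = 6.94e-07) and 4.06 ± 0.78 (adjusted p = 0.000107). Levels in replicates 3 and 4 of both groups stood several-fold above those in replicates 1 and 2. In si-dnmt Mmp9 held 3.43, 3.56, 4.7 and 4.32 CPM with TNF and 1.91, 1.98, 2.08 and 1.63 CPM with TNF + IFN. The siRNA difference was -0.63 ± 0.52 under TNF (adjusted p = 0.437) and 0.20 ± 0.56 under TNF + IFN (adjusted p = 0.857). Under TNF + IFN it was 2.10 within replicates 1 and 2 and -0.64 within replicates 3 and 4, so it turned with the pair.

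The next question was how TNF, IFN and both together moved the members in si-control cells. The 3 comparisons share the 4 resting si-control libraries. With TNF 7 of 35 members were called higher and 12 lower (20% and 34.3%), beside 16.1% and 14.6% of all genes tested. With IFN 4 were called higher and 7 lower (11.4% and 20%), beside 8.56% and 5.92%. With TNF + IFN 8 were called higher and 14 lower (22.9% and 40%), beside 23.5% and 21.6%. The share called lower was above that of all genes in each comparison, whereas the share called higher was close to it, a comparison for which no test was made. Mmp3, Mmp9 and Mmp13, which passed the 1 CPM limit only through groups with TNF, are among the rises with TNF and with both. Adam3, Adam5 and Adamts18, which passed it only through groups without TNF, are among the falls. The shares are thus not independent of the choice of members. The median log2 fold change of the members was -0.15, -0.37 and -0.27, beside -0.01 for all genes in each. With the replicate number as a block, 17 members in place of 11 were called with IFN (5 higher and 12 lower). The share of all genes in that fit is not given here. Of the 35, 9 were called in none of the 3, and 8 in neither these nor the siRNA comparisons.

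**Figure D4:**
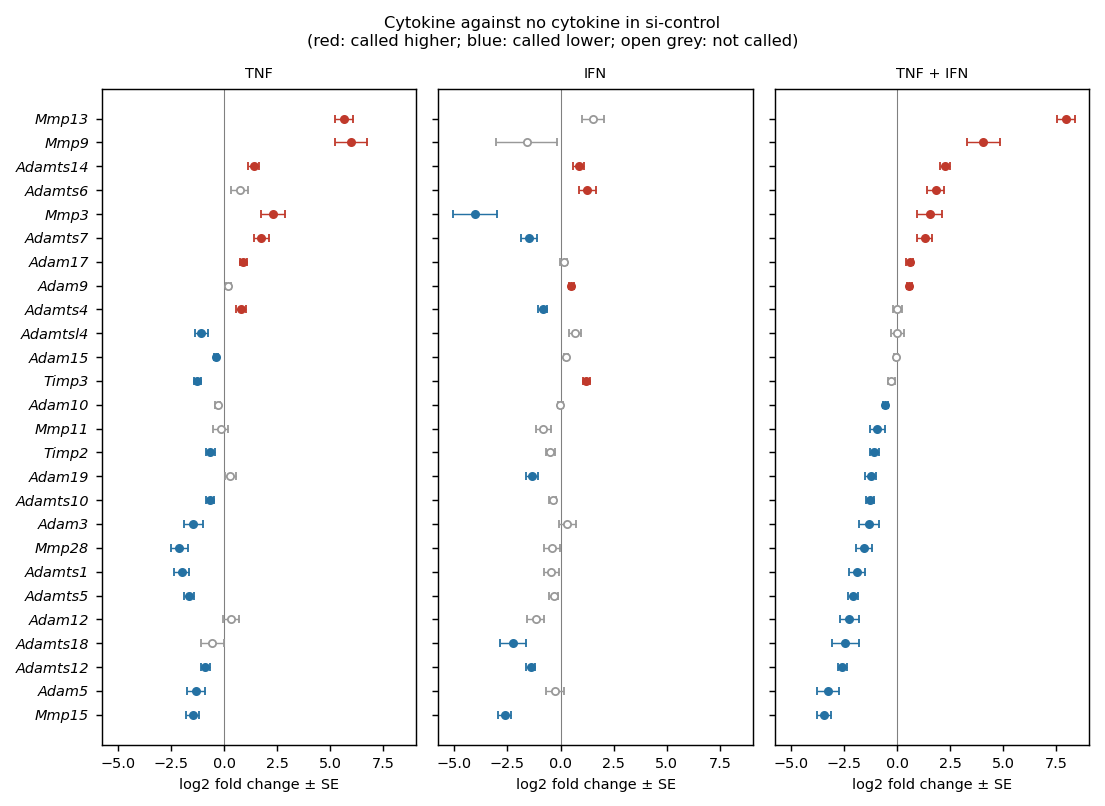
Log2 fold change ± SE (x axis) of the 26 members called in at least 1 comparison of a cytokine with none in si-control, from edgeR's fit of 4 libraries per group, ordered by the change with TNF + IFN. Mmp13 heads the rises (7.96) and Mmp15 the falls (-3.44), and Mmp3, Adamts7, Adamts4 and Timp3 lie on opposite sides of 0 for TNF and IFN.

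For 4 members TNF and IFN were called in opposite directions. Adamts7, which cuts cartilage oligomeric matrix protein, was at 81.1, 94.8, 34.6 and 31.4 CPM at rest, 255, 260.0, 151 and 151 CPM with TNF and 24.8, 27.2, 16.6 and 18 CPM with IFN. The groups did not overlap, and it rose by 1.76 ± 0.37 with TNF (adjusted p = 0.000642) and fell by 1.48 ± 0.38 with IFN (adjusted p = 0.00677). With both it was at 196, 164, 112 and 119.8 CPM, 1.29 ± 0.37 against rest (adjusted p = 0.00533). Adamts4, an aggrecan and versican protease, rose by 0.79 ± 0.22 with TNF (adjusted p = 0.00651), fell by 0.84 ± 0.22 with IFN (adjusted p = 0.00897) and stood at 56.3 ± 8.54 CPM with both against 55.7 ± 8.58 CPM at rest (0.02 ± 0.22, adjusted p = 0.963). Its libraries at rest (60.7, 65.3, 49.1 and 47.9 CPM) and with TNF (126.6, 134.4, 63.8 and 61.4 CPM) overlapped, and the rise was smaller in replicates 3 and 4. Mmp3 was a member only through its level in si-control + TNF. It rose 5.16-fold in summed counts with TNF (95% exact interval 3.38 to 8.17, fitted 2.32 ± 0.57, adjusted p = 0.00245), whereas IFN left 1 count against 26 at rest, 24.1-fold lower (3.97 to 990, adjusted p = 0.00846), a call lost within replicates 3 and 4 (adjusted p = 0.0849). With both Mmp3 was at 1.53 ± 0.58 (adjusted p = 0.0328), a call lost without replicate 3 or 4 of si-control or replicate 1 or 2 of si-control + TNF + IFN (1.09 to 1.52, adjusted p = 0.0537 to 0.167) as well as within replicates 1 and 2 (1.40, adjusted p = 0.0634) and by DESeq2 (adjusted p = 0.0531).

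Timp3, the inhibitor that is held in the matrix and also blocks Adam17, was the last of these. It was at 453, 467, 584 and 627 CPM at rest, 161, 167, 285 and 271 CPM with TNF, 1482, 1429, 979 and 1030.0 CPM with IFN and 452, 406, 469 and 443 CPM with both. TNF libraries lay below and IFN libraries above every resting library. It fell by 1.27 ± 0.17 with TNF (adjusted p = 1.02e-06), rose by 1.21 ± 0.16 with IFN (adjusted p = 2.66e-06) and was -0.27 ± 0.16 with both (adjusted p = 0.188). The rise with IFN was 1.69 in replicates 1 and 2 and 0.73 in replicates 3 and 4. With si-dnmt Timp3 was higher under TNF (303, 261, 328 and 334 CPM, 0.47 ± 0.16, adjusted p = 0.0401), where the groups overlapped and the call was lost without replicate 1 or 2 of si-control + TNF or replicate 1, 3 or 4 of si-dnmt + TNF (0.34 to 0.48, adjusted p = 0.0614 to 0.161).

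Timp2 fell with TNF + IFN, from 487, 515, 770.3 and 757 CPM at rest to 243, 239, 376 and 349 CPM, without overlap (-1.07 ± 0.21, adjusted p = 0.000155). With TNF it was -0.65 ± 0.21 (adjusted p = 0.0204), a call lost without replicate 3 or 4 of si-control or replicate 1 or 2 of si-control + TNF (-0.55 to -0.51, adjusted p = 0.0704 to 0.0831). With IFN it was -0.48 ± 0.21 (adjusted p = 0.144, 3.68e-05 with the replicate number as a block). Timp1, the inducible secreted inhibitor, was called in none of the 11 comparisons. It was at 18.8, 17.6, 30.6 and 27.8 CPM at rest, 23.8, 25.9, 36.7 and 33.6 CPM with TNF + IFN and 30.4, 33.5, 40.1 and 53 CPM in si-dnmt + TNF + IFN, overlapping throughout. The differences of 0.40 ± 0.22 between siRNAs under TNF, 0.39 ± 0.22 under TNF + IFN and 0.34 ± 0.22 for TNF + IFN against rest had adjusted p = 0.215, 0.233 and 0.22, and 0.000257, 0.000746 and 0.000829 with the replicate number as a block. Replicates 3 and 4 lay above replicates 1 and 2 in all 8 groups.

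**Figure D5:**
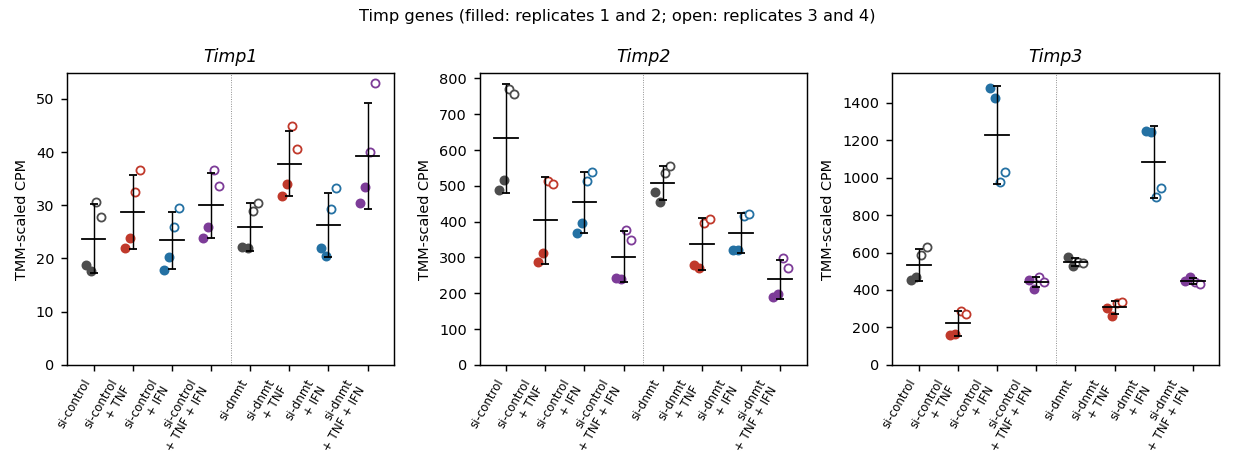
TMM-scaled CPM (y axis, from 0) of the 3 reported Timp genes by group (x axis). Points are libraries, filled for replicates 1 and 2 and open for replicates 3 and 4, and bars are the group mean ± SD (n = 4). Timp3 is lowest with TNF and highest with IFN under both siRNAs, and Timp1 replicates 3 and 4 lie above replicates 1 and 2 in every group.

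Among the other ADAMTS proteases, Adamts14 rose in all 3 comparisons (1.39 ± 0.24 with TNF, 0.84 ± 0.25 with IFN and 2.24 ± 0.24 with both, adjusted p = 7.36e-05, 0.021 and 1.37e-08). The IFN call was lost without replicate 1 or 2 of si-control or replicate 2 or 4 of si-control + IFN (0.65 to 0.80, adjusted p = 0.0534 to 0.0949) and within replicates 3 and 4 (0.54, adjusted p = 0.129). Adamts6 rose with IFN (1.26 ± 0.41, adjusted p = 0.035) and with both (1.82 ± 0.41, adjusted p = 0.000584), from 7.27, 6.67, 2.11 and 3.45 CPM at rest to 22.3, 23.9, 10.2 and 11.9 CPM with both. Its IFN call was lost without replicate 3 or 4 of si-control or replicate 1 or 2 of si-control + IFN (0.96 to 1.09, adjusted p = 0.108 to 0.158). Adamts9, a proteoglycan-cutting enzyme, was 1.15 ± 0.55 with both (adjusted p = 0.0906, 1.56e-09 with the replicate number as a block).

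Falls in at least 1 comparison and no rise were called for Adamts1, Adamts5, Adamts12 and Adamts18. Adamts1 was at 344, 401, 194 and 196 CPM at rest and 92.1, 106, 44 and 41.9 CPM with TNF, with no overlap (-2.0 ± 0.36, adjusted p = 8.3e-05), and fell by 1.89 ± 0.35 with both (adjusted p = 7.35e-05). Adamts5, the main aggrecanase of cartilage, fell by 1.64 ± 0.24 with TNF (adjusted p = 4.73e-06) and by 2.06 ± 0.24 with both (adjusted p = 5.03e-08), to 4.18, 4.79, 7.02 and 7.35 CPM from 25.7, 29.7, 21.3 and 20.8 CPM. Adamts12 fell in all 3 comparisons, by 0.88 ± 0.21, 1.41 ± 0.21 and 2.57 ± 0.22 with TNF, IFN and both (adjusted p = 0.00164, 1.14e-05 and 1.58e-10). Adamts18 fell by 2.24 ± 0.62 with IFN (adjusted p = 0.013) and 2.44 ± 0.63 with both (adjusted p = 0.0024), at 1.55, 0.371, 1.67 and 1.84 CPM at rest and 0.096, 0, 0.616 and 0.317 CPM with both. Its IFN call was lost without si-control + IFN replicate 1 (-1.94, adjusted p = 0.0502). Adamts18 passed the 1 CPM limit only at rest (at most 0.938 CPM in any group with a cytokine). Its falls are thus not independent of its choice as a member.

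Of the membrane-type and other Mmp genes, Mmp15 fell in all 3 comparisons. It was at 6.05, 6.89, 6.46 and 6.09 CPM at rest, 3.39, 3.33, 1.3 and 1.07 CPM with TNF, 0.84, 1.3, 0.818 and 1.13 CPM with IFN and 0.624, 0.468, 0.431 and 0.793 CPM with both, so each cytokine group lay below rest without overlap. The falls were 1.49 ± 0.29, 2.63 ± 0.32 and 3.44 ± 0.34 (adjusted p = 0.000257, 2.74e-07 and 1.73e-09). Mmp28 (epilysin) fell by 2.12 ± 0.40 with TNF (adjusted p = 0.000159) and 1.55 ± 0.39 with both (adjusted p = 0.00171), from 9.33, 13.4, 10.1 and 11.2 CPM at rest to 1.72, 2.58, 2.51 and 3.34 CPM with TNF. Mmp2 was not called with a cytokine. Its difference of -0.08 ± 0.15 with TNF was 0.25 in replicates 1 and 2 and -0.38 in replicates 3 and 4, each called within its pair. With both cytokines it was -0.36 ± 0.15 (adjusted p = 0.0527, 0.0273 with the replicate number as a block), and called without replicate 1 of si-control or of si-control + TNF + IFN (-0.45 and -0.41, adjusted p = 0.0235 and 0.0483). Mmp13 was at 1.52 ± 0.53 with IFN (adjusted p = 0.0543), and called without si-control replicate 4 or si-control + IFN replicate 3 (2.38 and 1.72, adjusted p = 0.00785 and 0.0329).

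The constitutive ADAM sheddases moved in different directions. Adam17, the enzyme that releases TNF and its receptors, was at 175, 205, 144 and 153 CPM at rest, 342, 352, 299.6 and 279 CPM with TNF and 282, 284, 215 and 234 CPM with both. It rose by 0.91 ± 0.16 (adjusted p = 6.2e-05) and 0.58 ± 0.16 (adjusted p = 0.00318), with no overlap. Adam10, a sheddase of Notch and VE-cadherin, was at 444, 471, 469.8 and 514 CPM at rest and 337, 372, 291 and 288 CPM with both, and fell by 0.56 ± 0.12 (adjusted p = 0.000306). Adam15 fell by 0.37 ± 0.10 with TNF (adjusted p = 0.00606), a call lost within replicates 1 and 2 (-0.21, adjusted p = 0.13). Adam19 fell by 1.35 ± 0.27 with IFN (adjusted p = 0.000736) and 1.25 ± 0.27 with both (adjusted p = 0.00043).

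Adam8, a protease best known from leukocytes, split by replicate pair. It was at 5.58, 5.25, 20.5 and 21.4 CPM at rest and 23.1, 21.3, 60.5 and 60.3 CPM with both cytokines, and at 28.2, 25.6, 86.8 and 84.1 CPM in si-dnmt + TNF + IFN. The difference of 1.64 ± 0.74 with both was not called (adjusted p = 0.0725), although it was 2.05 in replicates 1 and 2 and 1.53 in replicates 3 and 4, and adjusted p = 1.49e-09 with the replicate number as a block. The siRNA differences of 0.53 ± 0.73 at rest and 0.99 ± 0.73 under IFN had adjusted p = 0.678 and 0.374, and 0.0456 and 8.89e-05 with the block. The 5 leukocyte markers examined summed to at most 1.86 CPM in any library. Mmp19, a secreted metalloproteinase of the basement membrane, was -0.55 ± 0.21 between siRNAs under IFN (adjusted p = 0.0625, 0.0341 with the block).

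Adam5 fell with TNF (-1.32 ± 0.44, adjusted p = 0.0221) and with both (-3.25 ± 0.53, adjusted p = 1.01e-05), from 0.656, 0.636, 2.2 and 2.78 CPM at rest to 0.096, 0.26, 0.185 and 0.106 CPM with both. Adam5 passed the 1 CPM limit only through groups without TNF (at most 0.645 CPM in any group with TNF). Its falls are thus not independent of its choice as a member. Its TNF change was 0.17 within replicates 1 and 2 and -2.20 within replicates 3 and 4, and that call did not hold without replicate 3 or 4 of si-control or replicate 3 of si-control + TNF (-1.14 to -0.89, adjusted p = 0.0760 to 0.138). Outside the naming rule, and chosen after their values were seen, the remaining calls were falls of Adam3 and Adamts10 with TNF and with both, of Adamtsl4 with TNF and of Mmp11 with both. Those of Adam3 with TNF and of Adamtsl4 were each lost without 1 si-control library (replicate 1, -1.24, and replicate 3, -0.84), those of Adam3 and Mmp11 with both without any of 3 and 4 libraries (-1.19 to -1.0 and -0.83 to -0.72). Within one pair, the TNF calls of Adam3 (replicates 3 and 4, adjusted p = 0.304) and Adamts10 (replicates 1 and 2, adjusted p = 0.0514) were lost.

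In the TNF-by-IFN interaction of si-control, which asks whether the response to both differed from the sum of the single responses on the log scale, edgeR called 0 of 35 members, beside 1.06% of all genes tested. At an unadjusted p under 0.05 there were 4, DESeq2 called 0, and with the replicate number as a block edgeR called 4 (3 higher and 1 lower). The share of all genes in those fits is not given here.

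Genes that act with the proteases were counted from 2 lists. Of 19 tested activators, inhibitors and partners (plasminogen activators, proprotein convertases, Reck, rhomboid and tetraspanin partners of the ADAMs), 5 were called higher and 7 lower with TNF + IFN in si-control, beside 23.5% and 21.6% of all genes, and 4 higher and 2 lower with si-dnmt at rest, beside 9.58% and 8.88%. Of 19 tested matrix and shed substrates, 7 were called higher and 7 lower with TNF + IFN, and 4 higher and 1 lower with si-dnmt at rest, beside the same shares of all genes. In the first list the largest fall with TNF + IFN was in Plat, the tissue plasminogen activator (119.5 ± 104 to 6.32 ± 2.46 CPM, log2 -4.23 ± 0.59, adjusted p = 1.01e-06).

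In the substrate list the largest rise with TNF + IFN was in Dcn, the small proteoglycan decorin (1.02 ± 0.624 to 27.5 ± 7.0 CPM, log2 4.77 ± 0.72, adjusted p = 3.79e-06). Dcn is also a fibroblast marker, and of the others Pdgfra had counts in all 32 libraries and Col1a1 in all but 4, while Lum was at 0 in 29 and Tcf21 in 32. Col1a1 had a lower mean with TNF + IFN (0.0428 ± 0.0582 CPM) than at rest (0.569 ± 0.576 CPM). The largest fall was in Vwf, the multimeric adhesion protein cut by Adamts13 (46.4 ± 11.7 to 1.48 ± 0.652 CPM, log2 -4.96 ± 0.33, adjusted p = 5.33e-13). Adamts13 itself was among the silent members.

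The 2 replicate pairs were also fitted apart. Over the 35 members the fold change had the same sign in both pairs for 25, 26, 29 and 24 members in the siRNA comparisons at rest, under TNF, under IFN and under TNF + IFN, and for 27, 28 and 30 with TNF, IFN and both. Both pairs called 7, 11, 11 and 10 members the same way in the siRNA comparisons and 17, 15 and 23 with the cytokines. They called a member in opposite directions in 5 cases, Adam19 between siRNAs under TNF, Adamts5 between siRNAs under IFN, and Adam12, Adam19 and Mmp2 with TNF. No share of all genes is given beside these counts.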

How the data were processed

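Bulk RNA-seq of 32 libraries, 4 for each of 8 groups, was analysed from the deposited tables, which hold raw counts per gene made by the authors, 1 per library and 1 merged. The submitters' processing notes name cutadapt 4.9, FastQC 0.12.1, MultiQC 1.27.1, featureCounts and DESeq2. For aligner, genome build, annotation and strand setting nothing is given in the labels or methods, and overlapping, antisense or near-identical genes (such as Adam1a and its paralog) cannot be told apart. The merged table equalled the per-library tables in every cell. Library totals were 17362546 to 33500030 counts.

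Counts were fitted with edgeR 4.0.16 in R 4.3.3 (quasi-likelihood F test, two-sided) over all 32 libraries with 8 group means and trimmed mean of M values (TMM) scaling. Genes passed filterByExpr with a minimum count of 10, which kept 15254, and p-values were adjusted by Benjamini-Hochberg over these, with calls at an adjusted p under 0.05. The SE is the absolute log2 fold change divided by the square root of F. Cytokine comparisons share the 4 si-control libraries. Intervals of count ratios are exact conditional binomial ones at 95% and cover counting error only. Scripts were tested on simulated data.

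Members and lists were chosen with earlier results of these data known. Named were a fixed list of members, those called the same way in all 4 siRNA comparisons, the 3 largest rises and falls called in each comparison, and members called in an interaction. Partner genes named were the largest rise and fall of each list with TNF + IFN, except 1 that is not reported here.

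The alternatives were RLE size factors, no filter on low counts, DESeq2 1.42.0, the libraries of a comparison alone, replicates 1 and 2 or 3 and 4 alone, each library left out, and the replicate number as a block. Deviations from the group means of same-numbered libraries correlated in all 112 pairs (r = 0.297 to 0.617, median 0.415). Those of the other number in the same pair (1 with 2, 3 with 4) correlated at 0.209 to 0.564 (median 0.409), and those across pairs at -0.590 to -0.239. These values set replicates 1 and 2 apart from 3 and 4, but hardly a number from the other of its pair. The main fit held no term for either, and the block by replicate number was fitted as an alternative only. Of the 32 libraries, 24 correlated best with their own number. Promoters came from RefSeq on GRCm38.p6 and exon lengths from GENCODE M21. Protein sequences were not used here.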

Additional observations from a re-analysis of the deposited data

Results flagged for a closer look

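In 6 of 224 groups of 4 libraries, taken over 28 members and 8 groups, the highest or lowest library lay apart from the rest by Dixon's criterion at the 95% level, and chance gives about 1 in 20. Mmp13 was at 0.359 CPM in si-control replicate 4, with the others at 0.053 to 0.0938 CPM, and at 0.218 CPM in si-control + IFN replicate 3, with the others at 0.504 to 0.54 CPM. Mmp9 was at 0.109 CPM in si-control + IFN replicate 3 and at 0 in the other libraries of that group. Mmp19 was at 6.31 CPM in si-dnmt replicate 1, with the others at 3.65 to 4.02 CPM. Mmp3 was at 0.052 CPM in si-control + IFN replicate 2, which is 1 count, with 0 in the others, and at 0.412 CPM in si-dnmt + TNF replicate 1, with the others at 0.0469 to 0.0922 CPM.

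The response of Mmp13 to TNF + IFN differed between si-dnmt and si-control by -3.70 on the log2 scale (edgeR adjusted p = 0.00188). Part of this is the difference at rest, which comes from 13 counts in si-control and 37 in si-dnmt and was not called.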

How the results depend on the processing

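Low counts limit Mmp13 at rest, Mmp9 at rest and Mmp3 throughout, and the 4 libraries per group fall into 2 pairs that differ in level. Of 104 gene values recomputed, RLE size factors left 102 on their side of the threshold and in their direction, no filter 99, DESeq2 98 and the replicate block 90. The other 14 under the block were calls gained, and the block ended no call. RLE size factors ended the call of Adamts1 between siRNAs under TNF, and no filter those of Adam15 at rest, Timp3 under TNF, Adamts14 and Mmp15 under TNF + IFN and Mmp3 with TNF + IFN in si-control. The libraries of a comparison alone, with fewer samples, ended 11 of 97, namely Adamts1, Mmp15 and Timp3 between siRNAs under TNF, Adam19 between siRNAs under IFN, Adam5, Adamts4 and Timp2 with TNF, Adamts6, Adamts14 and Adamts18 with IFN, and Mmp3 with TNF + IFN (adjusted p = 0.0553 to 0.160).

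The count of members called moved with the replicate block to 11 at rest, 16 under IFN, 17 for IFN in si-control, and 1, 3 and 4 in the interactions of the siRNA with TNF, of the siRNA with TNF + IFN and of TNF with IFN. In replicates 1 and 2 alone it was 11, 16, 14 and 14 in the siRNA comparisons at rest, under TNF, under IFN and under TNF + IFN, 23 for IFN in si-control, and 1, 1, 4 and 6 in the interactions with TNF, IFN and TNF + IFN and of TNF with IFN. In replicates 3 and 4 alone it was 15, 17, 17 and 18 between siRNAs, and 7, 2, 7 and 6 in the interactions. DESeq2 called 1 member in the interaction with TNF, and leaving out 1 library gave 0 to 1. The cause was not tested. Shares of all genes called under these alternatives are not given here, so these counts have no background beside them.

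Directions that turned were those of Mmp2 with TNF (0.25), Mmp9 between siRNAs under TNF (0.40) and Adam5 with TNF (0.17) in replicates 1 and 2, and of Mmp9 between siRNAs under TNF + IFN (-0.64), Mmp15 at rest (-0.13) and Adam19 under TNF (0.38) in replicates 3 and 4. Adamts4 with TNF + IFN was -0.0055 in the libraries of the comparison alone and -0.065 to 0.099 with 1 library left out, and Mmp9 under TNF + IFN was -0.14 to 0.65. Of these, the values of Mmp2 and Adam19 passed the threshold. The libraries of a comparison alone could not be fitted for Mmp3 (between siRNAs at rest and under TNF + IFN, and with IFN), Mmp13 (between siRNAs at rest and under IFN, and with IFN) or Mmp9 with TNF + IFN, since those genes failed the filter there.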
